A study of Homo sapiens with 2 samples.

Results

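The genes IFIH1, RIGI, DDX60, OAS1 and SAMHD1 encode cytoplasmic sensors of foreign RNA or enzymes that act on nucleic acids and nucleotides in antiviral defence. They were followed in H1299, a human cell line established from a non-small cell lung cancer, after it was transfected with a miR-138 mimic or with a negative control (NC) mimic. The 5 genes were chosen because they have this function and are present in a table that holds only features with a difference of at least 2-fold between the mimics. They therefore account for 5 of its 243 features, and all 5 symbols were found, each in 1 feature. A mimic is a synthetic duplex RNA standing in for a mature microRNA, a short RNA that lowers the output of matching messenger RNAs. Both groups were unmodified H1299 cells kept in medium with 10% fetal bovine serum and lipofected at 70% confluence, and RNA was taken at 48 h. There was 1 array for each mimic, so no value below has an error, no test was possible, and "higher" or "lower" says only how this pair of arrays compared. Neither untransfected cells nor cells given the transfection reagent alone are part of the comparison, so both groups share the transfection.

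RIG-I-like receptors are RNA helicases that patrol the cytoplasm for RNA that looks viral. On binding it they signal through the mitochondrial adapter MAVS to kinases that switch on interferon genes. Secreted interferon then acts through JAK-STAT signalling and raises a large set of defence genes, in which the sensors themselves are included. Another branch is carried by the oligoadenylate synthetases, which answer double-stranded RNA by making a second messenger, short oligoadenylates. SAMHD1 belongs to a further branch, which withholds the deoxynucleotides that viral reverse transcription needs.

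The supplied microRNA is shown first, since it is the single labelled difference between the groups. The labels do not name the arm, and the sequence here is that of the 5p arm from RefSeq (GRCh38.p14), with the seed, bases 2 to 8, in capitals. Both human miR-138 genes, on chromosomes 3 and 16, give this same mature sequence. No other name among the mature human miRNAs of that table has this seed.

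hsa-miR-138-5p: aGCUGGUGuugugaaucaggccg

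The table also held a feature of MIR138-1, one of the genes of this microRNA. Its log2 signal was 14.07 with the miR-138 mimic and 6.13 with the NC mimic, in the direction of the labels. Whether its probes read the duplex or the gene's own transcript is unknown.

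The promoters of the 5 genes are shown next, because their sequence was not used in the choice of members. That choice is still not independent of interferon-response elements. It took antiviral genes, and interferon raises a large set of defence genes, the sensors included. Each run covers the 250 bases before the gene's annotated start in RefSeq, GRCh38.p14, read 5′ to 3′ on the gene's strand. IFIH1 lies on the minus strand at chr2:162318685-162318934, RIGI on the minus strand at chr9:32526197-32526446 and DDX60 on the minus strand at chr4:168318753-168319002. OAS1 lies on the plus strand at chr12:112906712-112906961 and SAMHD1 on the minus strand at chr20:36951709-36951958. The chromosome was the same as the one coded in each gene's array feature ID. Capitals mark 2 forms of the interferon-stimulated response element (ISRE), searched on both strands. The core is GAAA, then any 2 bases, then GAAA (on the other strand TTTC, any 2 bases, TTTC), and the second form has GGAA in place of the first GAAA.

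IFIH1: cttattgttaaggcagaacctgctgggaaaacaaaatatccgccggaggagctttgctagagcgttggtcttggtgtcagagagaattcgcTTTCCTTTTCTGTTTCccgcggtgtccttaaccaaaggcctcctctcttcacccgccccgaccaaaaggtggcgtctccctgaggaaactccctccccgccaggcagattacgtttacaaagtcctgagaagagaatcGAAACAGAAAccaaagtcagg
RIGI: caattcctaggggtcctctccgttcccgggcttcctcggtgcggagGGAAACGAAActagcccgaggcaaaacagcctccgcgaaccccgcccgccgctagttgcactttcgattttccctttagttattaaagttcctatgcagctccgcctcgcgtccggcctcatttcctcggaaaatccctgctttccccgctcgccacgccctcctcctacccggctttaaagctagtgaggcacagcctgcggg
DDX60: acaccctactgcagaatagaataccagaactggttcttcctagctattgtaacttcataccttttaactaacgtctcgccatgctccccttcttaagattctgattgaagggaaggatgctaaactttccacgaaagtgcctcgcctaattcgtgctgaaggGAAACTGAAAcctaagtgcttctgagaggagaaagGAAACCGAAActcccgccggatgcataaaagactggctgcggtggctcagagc
OAS1: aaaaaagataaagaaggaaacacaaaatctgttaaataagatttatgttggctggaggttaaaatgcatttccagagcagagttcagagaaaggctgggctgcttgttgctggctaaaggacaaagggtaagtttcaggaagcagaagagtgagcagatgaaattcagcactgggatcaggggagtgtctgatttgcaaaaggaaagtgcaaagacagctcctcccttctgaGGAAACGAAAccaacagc
SAMHD1: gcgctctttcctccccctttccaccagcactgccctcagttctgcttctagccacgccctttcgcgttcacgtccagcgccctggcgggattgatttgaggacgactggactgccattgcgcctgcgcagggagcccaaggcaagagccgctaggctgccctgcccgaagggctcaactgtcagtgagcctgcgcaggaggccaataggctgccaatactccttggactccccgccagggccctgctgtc

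All 5 genes were higher with the miR-138 mimic, IFIH1 the most at 4.86-fold and OAS1 the least at 2.08-fold. The choice of members used this same contrast, so the count is a description. Of all 243 features, 42.8% were higher, and nothing is read from the members' count against that share. The median log2 difference of the members was 1.63, beside -1.05 over all features and 1.23 over the 104 higher features. With a log2 limit of 1.5, IFIH1, RIGI and DDX60 were left of the 5, and 12.3% of all features were higher by at least that much. With a limit of 2, which is 4-fold, IFIH1 alone was left, and 3.70% of all features were higher by at least that much. The RNA was taken from whole cultures, in which a difference cannot be told apart from a change in the share of cells that express the gene.

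IFIH1 encodes MDA5, the RIG-I-like receptor that assembles along long double-stranded RNA. Its log2 signal was 8.43 with the miR-138 mimic and 6.15 with the NC mimic, a difference of 2.28. This was the fifth largest positive difference of the table, after MIR138-1, IFI44L, IFIT1 and SAMD9. RIGI encodes RIG-I, the receptor for short duplexes with a 5′ triphosphate. It had a log2 signal of 8.0 with the miR-138 mimic and 6.01 with the NC mimic, a difference of 1.99 or 3.97-fold, at rank 10 among positive differences. The third receptor of the family, DHX58, known as LGP2, was not analysed here, because a gene outside the table has no value.

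DDX60 encodes an interferon-inducible DExD/H-box helicase that has been described as a partner of the RIG-I-like receptors. Its log2 signal was 7.38 with the miR-138 mimic and 5.75 with the NC mimic, a difference of 1.63 or 3.10-fold, at rank 23. Its mean signal over both arrays, 6.565, lay just inside the dimmest 25% of the table, whose limit was 6.57, and it was the single member of the 5 there. None of the other 20 genes on the list of DExD/H-box helicases, among them its neighbour in name DDX60L, had a named feature in the table.

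Signals of different array features come from different probes, so no order of abundance among the 5 genes is given, only the order of their differences. The members' differences were separated by 0.29 between IFIH1 and RIGI, 0.36 between RIGI and DDX60, 0.43 between DDX60 and SAMHD1 and 0.14 between SAMHD1 and OAS1. Values were given to 2 decimals, so rounding can move a difference by at most 0.01. Every gap in the order exceeds that, but the spread between cultures is unknown and could exceed any of them.

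**Figure D1:**
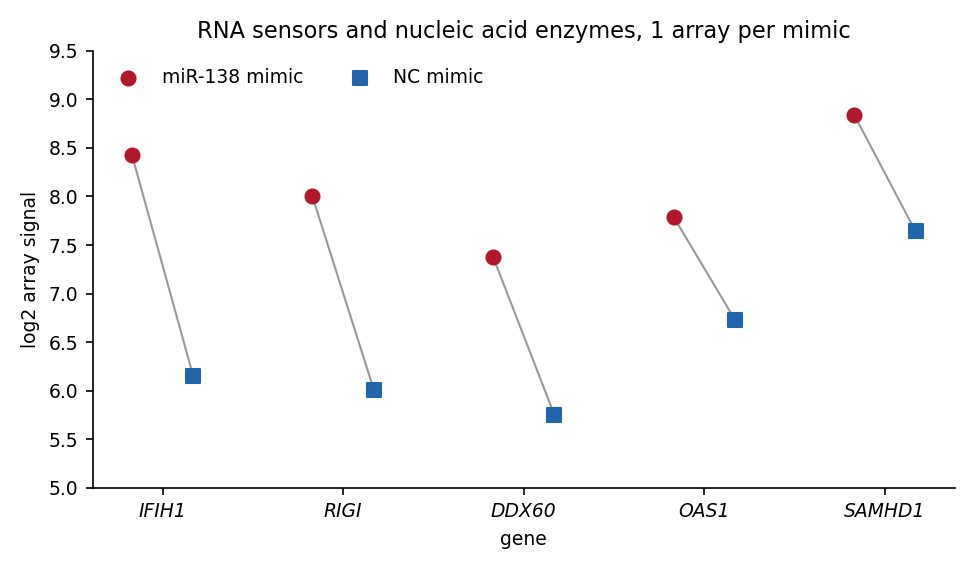
Log2 array signal (vertical axis) of the 5 genes (horizontal axis) with the miR-138 mimic (red circles) and the NC mimic (blue squares), 1 array each, joined by a line for each gene. Each red circle lies above its blue square, with the widest gap for IFIH1 (8.43 against 6.15) and the narrowest for OAS1 (7.79 against 6.73).

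OAS1 encodes an oligoadenylate synthetase, which is switched on by double-stranded RNA. Its log2 signal was 7.79 with the miR-138 mimic and 6.73 with the NC mimic, a difference of 1.06. This places it at rank 77 among 104 positive differences, close to the limit of the table at 1.0. Of the higher features, 28 had a difference of 1.06 or less, OAS1 included. Features on the other side of the limit are not in the table, so no value just outside it can be given. OASL, a relative that has lost the synthetase activity, was higher by 1.40, with 8.22 for the miR-138 mimic and 6.82 for the NC mimic. The remaining genes of the pathway list, OAS2, OAS3, PDE12 and ABCE1, had no named feature in the table and were not analysed here.

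SAMHD1 encodes a triphosphohydrolase that breaks down deoxynucleoside triphosphates and so restricts retroviruses. Its log2 signal was 8.84 with the miR-138 mimic and 7.64 with the NC mimic, a difference of 1.20 or 2.30-fold, at rank 55. SAMHD1 was the single gene in the table out of 30 on the list of deoxynucleotide and nucleic acid enzymes. The exonuclease TREX1, the RNase H2 subunits, the editing enzyme ADAR and the APOBEC3 deaminases were on that list and were not analysed here.

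**Figure D2:**
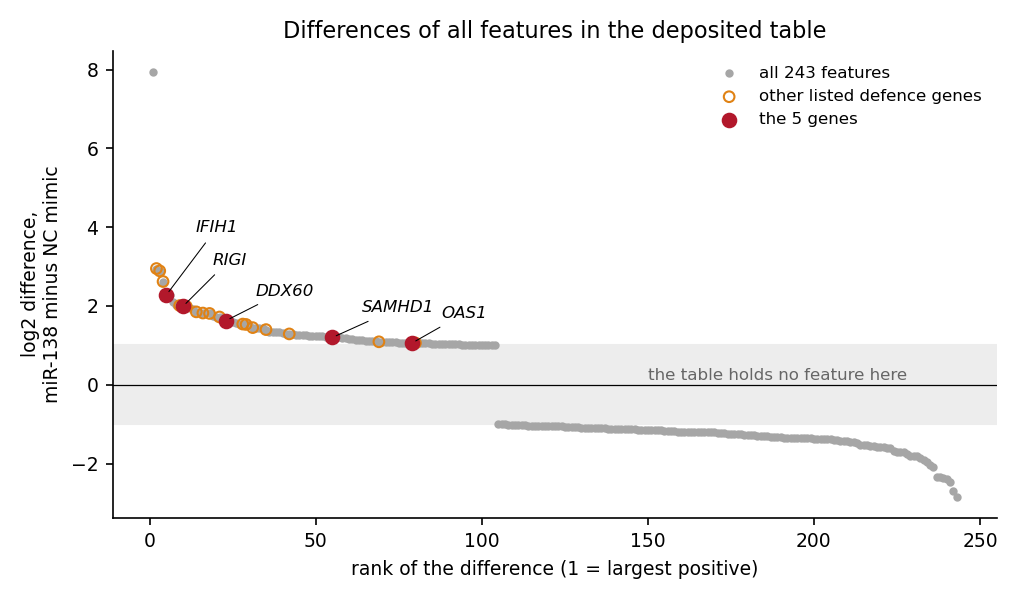
Log2 difference, miR-138 mimic minus NC mimic (vertical axis), of all 243 features by rank (horizontal axis), with the 5 genes in red and 16 other listed defence genes as open orange circles. IFIH1, RIGI and DDX60 stand on the steep part of the curve at ranks 5, 10 and 23, SAMHD1 and OAS1 on its flat part at ranks 55 and 77 (the best rank of each tie, with tied features drawn side by side), and no feature lies between -1 and 1.

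For each member the 3 nearest features in the plane of both arrays' log2 signals were taken. The distance joins the difference with the signal level, which depends on each feature's probes, so it describes closeness of 2 numbers and no likeness of the genes. EGR1 (distance 0.186), IL6 (0.191) and ANKRD1 (0.324) were nearest to IFIH1. HERC6 (0.202), IFIT3 (0.209) and SNAPC1 (0.331) were nearest to RIGI. CCL5 (0.162), CALB2 (0.3) and C21orf91 (0.368) were nearest to DDX60. Of these neighbours, IL6, HERC6, IFIT3 and CCL5 are on a defence list, and EGR1, ANKRD1, SNAPC1, CALB2 and C21orf91 are not.

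HYCC2 (0.071), FAM24B (0.12) and BEX4 (0.18) were nearest to OAS1, and none of these is on a defence list. SERTAD1 (0.061), CLK1 (0.073) and THAP6 (0.112) were nearest to SAMHD1, again none of them listed. In the order of differences IFIH1 stood between SAMD9 at 2.62 and GADD45A at 2.11, both separated from it by more than the rounding. RIGI shared its difference of 1.99 with IFI44 and lay below IL6 at 2.01. DDX60 stood between ZNF461 at 1.69 and MEIOC at 1.62. OAS1 shared 1.06 with HYCC2 and SP110, and SAMHD1 shared 1.20 with PLCB4, below CALB2 at 1.21.

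The other genes of RNA sensing and antiviral defence were grouped by role. Together with the 5 genes, the lists held 206 genes, of which 21 had a named feature in the table, and 21 of 21 were higher, beside 42.8% of all features. Their median log2 difference was 1.72, beside 1.23 over all higher features. The lists were compiled with earlier results of these data known, so these counts are no independent evidence of direction. Among the sensors, IFIT1, which binds viral RNA by its cap structure, differed by 2.89, and its partner IFIT3 by 1.85. The signal of IFIT1 was 5.89 with the miR-138 mimic and 3.0 with the NC mimic, the lowest value in the table, so its difference and its rank above IFIH1 rest on a very dim feature. No gene from the list of 35 adapters and kinases, which carry the signal from sensor to nucleus, had a named feature in the table, MAVS and TBK1 included. The same holds for the 24 interferon regulatory factors and JAK-STAT genes. A difference below 2-fold in any of these could not be seen.

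Among 18 interferons and induced cytokines, IL6 and CCL5 were in the table, higher by 2.01 and 1.72, and no interferon gene had a named feature there. Among 50 antiviral effectors, 11 were in the table and 11 were higher, with a median of 1.54, beside 42.8% of all features higher and the median of 1.23 over the higher features. They ran from IFI44L at 2.95 and SAMD9 at 2.62 to the nuclear body genes SP100 at 1.09 and SP110 at 1.06. Between these lay ISG15, the ubiquitin-like modifier, at 1.54 and the mono-ADP-ribosyltransferase PARP14 at 1.45 with its relative PARP9 at 1.29. IFIH1, RIGI and DDX60 lay above the median of this list, and OAS1 and SAMHD1 below it.

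A separate list covered the proteins that make and load microRNAs, since the cells received a microRNA duplex. It had 2 of its 15 genes in the table, in opposite directions. AGO2, the Argonaute that holds the guide strand, had a log2 signal of 7.28 with the miR-138 mimic and 9.19 with the NC mimic, a difference of -1.91. LIN28B, which blocks let-7 maturation, differed by 1.58. DICER1 and the double-stranded RNA-binding protein PRKRA had no named feature in the table.

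**Figure D3:**
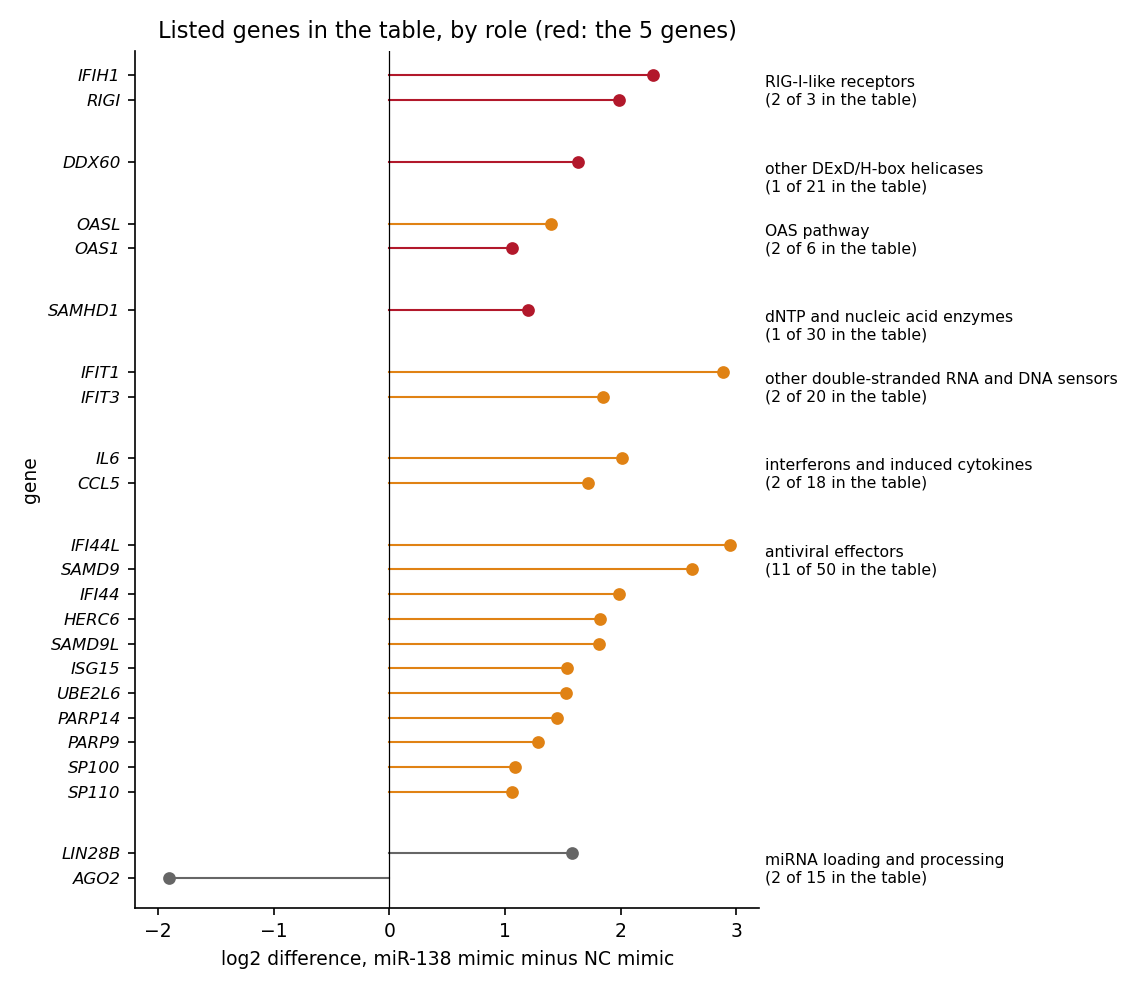
Log2 difference, miR-138 mimic minus NC mimic (horizontal axis), of the 23 listed genes that were in the table, ordered by role (vertical axis), with the 5 genes in red, other defence genes in orange and microRNA pathway genes in grey. Of the 23, AGO2 at -1.91 is the single bar to the left of 0, and each role's label gives how many of its listed genes were in the table.

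Matches to interferon-response elements were counted in promoter windows of 250 bases before to 50 after each annotated start, on both strands. A match describes letters and does not show binding. The ISRE core was found in IFIH1 and DDX60, 2 of the 5 genes, beside 4.38% of 27305 genes. The members were chosen as antiviral genes, so their counts of these elements are a description. In IFIH1, an overlapping pair of matches, TTTCCTTTTC and TTTCTGTTTC, began 159 and 153 bases before the start. Another, GAAACAGAAA, began 21 bases before it. In DDX60, GAAACTGAAA began 88 bases and GAAACCGAAA 53 bases before the start. The second of these continues with CT, as GAAACCGAAACT, and this longer element was found in 1 of the 5 genes and in 0.322% of all genes.

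RIGI and OAS1 held no ISRE core. Each held GGAAACGAAA, 204 bases before the start in RIGI and 18 bases before it in OAS1. This form, GGAA, any 2 bases and GAAA, was added after the members' promoters had been read, so its count of 2 of 5, beside 3.47% of all genes, supports nothing. Either form was present in 4 of the 5 genes, a count that the same choice fixes, and in 7.49% of all genes. SAMHD1 was the exception, with no match to either form, to the shorter half-site AANNGAAA bound by interferon regulatory factors, or to TTCNNNGAA. The half-site, also added after the promoters had been read, occurred in the other 4 members and in 26.7% of all genes. In IFIH1 and DDX60 all its matches overlap those of the ISRE core. In RIGI the matches that began 143 and 136 bases before the start overlap neither ISRE form. The same holds in OAS1 for the match that began 52 bases before the start.

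TTCNNNGAA is the core of the GAS element, the interferon gamma-activated site. It was found once in DDX60, as TTCCACGAA 124 bases before the start, and once in OAS1, as TTCAGAGAA 168 bases before it. Of all genes, 9.38% held it, as did 16.2% of the higher and 15.1% of the lower genes of the table. The members' windows also differed in base composition. OAS1 had 44.0% G and C with 1 CG dinucleotide, IFIH1 50.7% with 12 and DDX60 49.7% with 11. RIGI had 60.3% with 27 and SAMHD1 65.7% with 22, and the medians over all 35116 windows were 58.7% and 14.

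**Figure D4:**
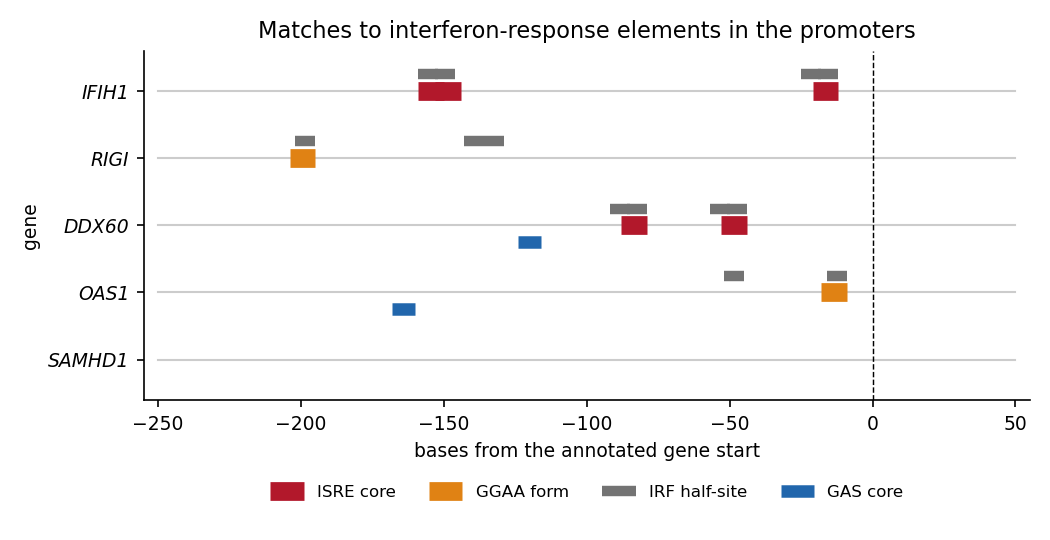
Positions of matches to 4 elements (coloured bars) in the promoters of the 5 genes (vertical axis), in bases from the annotated gene start (horizontal axis, start at the dashed line). IFIH1 and DDX60 carry the ISRE core (red), RIGI and OAS1 the GGAA form (orange), and SAMHD1 none of the 4.

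Beyond the 5 genes, 14 of the 16 other listed defence genes in the table had a promoter in the RefSeq table. The ISRE core was found in 8 of these 14, namely IFI44, IFI44L, IFIT1, IFIT3, ISG15, PARP9, PARP14 and SAMD9. Of 55 higher genes outside the defence lists with a promoter, 1 held it (1.82%), and of 106 lower genes 6 held it (5.66%). HERC6, IL6, SAMD9L, SP100 and UBE2L6 were higher with neither ISRE form in their windows, as was SAMHD1. The lists were compiled by role in RNA sensing and antiviral defence, and interferon raises a large set of defence genes. This difference between lists is therefore a description of the lists as much as of the table.

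**Figure D5:**
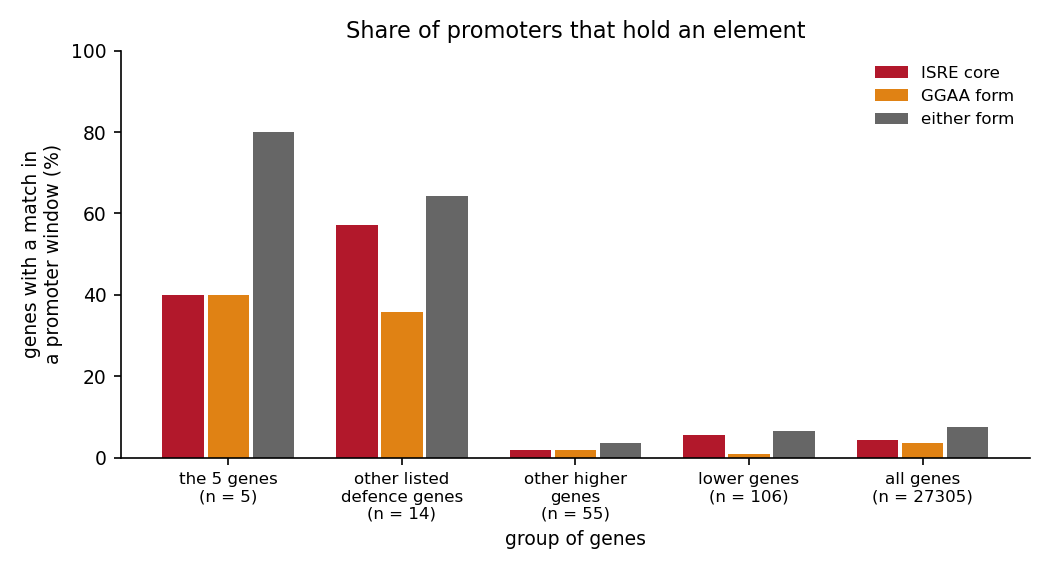
Percent of genes (vertical axis) with the ISRE core (red), the GGAA form (orange) or either (grey) in a promoter window, for the 5 genes, other listed defence genes, other higher genes, lower genes and all genes (horizontal axis, n below each). The ISRE core is present in 40% of the 5 genes, 57.1% of the other listed defence genes, 1.82% of other higher genes, 5.66% of lower genes and 4.38% of all genes. The GGAA form was added after the promoters of the 5 genes had been read, so the orange and grey bars of these genes are fixed by that choice. The 5 genes and the listed genes were chosen as defence genes, so their red bars are a description.

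Markers of other cell types were sought because the members are also expressed in immune cells. None of 10 plasmacytoid and myeloid markers and none of 6 lymphoid markers had a named feature in the table, and neither did any of 6 lung epithelial markers. Of 12 epithelial markers, 4 were in the table, DSP (-1.14), JUP (-1.09) and MAL2 (-1.06) lower and OCLN (1.24) higher. Of 10 fibroblast and endothelial markers, DCN (-2.47) was in the table. A table limited to 2-fold differences cannot show whether a marker was expressed, so the labelled cell line could not be checked with it, and the part of other cells in the members' differences was not tested.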

How the data were processed

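The deposited table gives log2 values with 2 decimals for 243 transcript clusters on 2 arrays of a whole-transcript Affymetrix human array. Per the submitters' processing notes the authors made them with Affymetrix Expression Console; for its version, normalization and filter the sources used here give nothing. The smallest absolute difference was 1.0. The log2 base was taken from the range of the values, 3.0 to 14.07.

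Names came from the platform annotation, updated through a current human gene table (GRCh38.p14). Of the features, 221 had 1 gene, 9 several and 13 none here. Listed genes were sought only among features with 1 gene, so a gene in a feature of several was not counted. Differences were taken as miR-138 mimic minus NC mimic. No test was made, since each mimic had 1 array. Depth does not apply to arrays, and their number limits the precision. Named genes are the 5 members, every listed gene in the table, the 3 nearest features to each member, its neighbours in the order of differences, and MIR138-1. Genes outside this rule were named after their values were seen. The members and lists were chosen with earlier results of these data known. RefSeq promoters were found for 5 of 5 members. For genes with several annotated starts a match in any window counted. Protein sequences were not used here, and some listed genes are not reported here. Steps were tested on simulated data. Alternatives were centring, a filter on dim features, fold limits, symbol matching, rounding and other elements. Python 3.11.15, NumPy 2.4.6, pandas 2.3.3, SciPy 1.17.1 and Matplotlib 3.10.9 were used.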

Additional observations from a re-analysis of the deposited data

How the results depend on the processing

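Subtracting from each array its median over the features of the table raised all log2 differences by 0.06. Using the median of the table's features outside the lists raised them by 0.26. Neither is the median of a whole array, which the table does not hold. With the first, IFIH1 differed by 2.34, RIGI by 2.05, DDX60 by 1.69, SAMHD1 by 1.26 and OAS1 by 1.12, with a median of 1.69. With the second the values were 2.54, 2.25, 1.89, 1.46 and 1.32 in the same order of genes, with a median of 1.89. All 5 genes were higher under both, which their distance from 0 already fixed. The first left 104 features higher and 121 lower by at least 1, the second 104 and 66. The table holds no difference between -1 and 1, so raising all differences could not change the higher count. It could only reduce the lower count. Leaving out the dimmest 25% of features removed DDX60 and left 4 members, 4 of them higher, with a median of 1.59. A log2 limit of 1.5 left 3 members with a median of 1.99, and a limit of 2 left 1 at 2.28. The limit of 2 also left 5 of the 21 listed defence genes, while a limit of 1.5 left 14 and the dimness filter 15. Among features annotated to 1 symbol, 41.4% were higher. Matching symbols exactly as the platform writes them left 1 microRNA pathway gene in place of 2, because AGO2 carries an old and a current name there. The longer ISRE was found in 1 member, the half-site and the union of both ISRE forms in 4 each; the last 2 searches were chosen after seeing the data. No paired analysis was possible because each mimic had 1 array, so no replicate could be left out either. A change of pseudocount does not apply to log2 values.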

Other observations

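Another gene near this group was noticed after its value was seen. USP41P, a pseudogene of the USP family and a relative of USP18, the protease that removes ISG15, had a log2 signal of 7.64 with the miR-138 mimic and 6.41 with the NC mimic, a difference of 1.23. USP18 itself had no named feature in the table. Without probe sequences, hybridisation of USP18 transcripts to the USP41P feature was not tested.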
